A study of Mus musculus with 12 samples.

Results

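The Toll-like receptor genes *Tlr1*, *Tlr2*, *Tlr3*, *Tlr4*, *Tlr5*, *Tlr6*, *Tlr7*, *Tlr8*, *Tlr9* and *Tlr13* were followed by symbol through the count tables of the series, as 10 of the 52459 genes listed in each library. The RNA came from the forebrain/midbrain (F/M) and cerebellum (Cb) of male mice of 4 months of age. *Tpp1*-/- homozygotes (T), in which gene targeting disrupts *Tpp1* in the germ line and therefore in every cell, were set against wild-type siblings (N) from heterozygous crosses. *Tpp1* encodes tripeptidyl peptidase 1, a lysosomal protease whose loss causes a neuronal ceroid lipofuscinosis of childhood. Each of the 4 groups (F/M-N, F/M-T, Cb-N and Cb-T) held 3 libraries of poly(A)-selected RNA from whole tissue.

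Toll-like receptors are membrane proteins that bind molecules of microbes or of damaged cells and start the transcription of cytokine, chemokine and interferon genes. *Tlr1*, *Tlr2*, *Tlr4*, *Tlr5* and *Tlr6* act mainly at the cell surface on lipids and proteins, while *Tlr3*, *Tlr7*, *Tlr8*, *Tlr9* and *Tlr13* act in endosomes on nucleic acids, after transport by the chaperone *Unc93b1* and cleavage by endosomal proteases. In the brain, microglia carry most members of the family, and astrocytes are known to express *Tlr3*.

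Total counts per library were 21428379 to 24458189, so that 3 counts of a gene, the smallest level taken as detectable, amounted to 0.123 to 0.14 CPM, which covers counting error only. CPM are counts scaled to the library size, here by the TMM method over the 12 libraries. *Tpp1* itself averaged 90.2 CPM in F/M-N against 23.0 in F/M-T, and 113 in Cb-N against 29.7 in Cb-T, in the direction of the labels. A list of 8 cerebellar genes summed to 6817 to 6893 CPM in Cb-N but 5906 to 5992 in Cb-T, where 7 of the 8 were lower without overlap at an unadjusted p below 0.05 and 0 were called by edgeR or DESeq2, against 118 to 124 in the F/M libraries, and 8 genes of forebrain and midbrain to 506 to 542 CPM in the F/M libraries against 183 to 210 in Cb. Further markers of place differed between the genotypes. A list of 16 *Hox* genes of hindbrain and spinal cord summed to 14.3 to 14.9 CPM in the Cb-T libraries against 0.371 to 0.596 in Cb-N, and 5 genes of the olfactory bulb summed to 13.7 to 14.7 CPM in F/M-T against 35.7 to 38.2 in F/M-N, with all 5 called lower. In Cb this list summed to 13.4 to 14.9 CPM in T against 52.8 to 55.1 in N, but did not move together, with 1 of its 2 tested genes called higher and 1 lower. These differences run with genotype in all 3 libraries of a group, and their part in the results for the receptors was not tested.

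RefSeq gave 10 promoters for 8 of the 10 members, all but *Tlr4* and *Tlr7*, with 2 each for *Tlr1* and *Tlr6*, and the 250 bases before each transcription start were searched on both strands for 4 motifs of factors and of the core promoter. The core of the binding site of the myeloid factor PU.1 (GAGGAA) was found in 4 of the 10 promoters (40%), those of *Tlr8*, *Tlr9* and *Tlr13* and 1 of *Tlr1*, against 23.3% of 32851 promoters of the same length. The NF-kB motif (GGGNNNNNCC) was found in those of *Tlr2*, *Tlr3* and *Tlr5* and 1 of *Tlr6* (40% against 45.8%), the interferon response motif (GAAANNGAAA) in the other of *Tlr6* (10% against 2.98%), and TATAAA in 1 of *Tlr6* and that of *Tlr8* (20% against 12.4%). The promoters of 4 members that rose in Cb are given below as the bases outside annotated exons (RefSeq, GRCm38.p6, 5′ to 3′ on the strand of the gene). Capitals mark the NF-kB motif in *Tlr2*, as overlapping matches 173 and 172 bases before the start, and the PU.1 core in *Tlr1*, *Tlr9* and *Tlr13*, at 23, 112 and 83 bases before it. These distances are counted from the RefSeq start, which for *Tlr1*, *Tlr2* and *Tlr13* lies inside the first annotated exon, so that the bases between are left out of the printed run. A match describes letters in a window and is no evidence of binding.
Tlr2 promoter, chr3:83841768-83841858, minus strand: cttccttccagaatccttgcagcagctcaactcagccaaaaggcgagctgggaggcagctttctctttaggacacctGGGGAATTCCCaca
Tlr1 promoter, chr5:64933564-64933808, minus strand: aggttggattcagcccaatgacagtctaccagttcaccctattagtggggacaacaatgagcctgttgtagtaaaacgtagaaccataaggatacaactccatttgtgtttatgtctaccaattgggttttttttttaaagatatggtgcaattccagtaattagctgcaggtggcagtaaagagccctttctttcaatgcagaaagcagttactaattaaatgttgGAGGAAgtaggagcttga
Tlr9 promoter, chr9:106222348-106222597, plus strand: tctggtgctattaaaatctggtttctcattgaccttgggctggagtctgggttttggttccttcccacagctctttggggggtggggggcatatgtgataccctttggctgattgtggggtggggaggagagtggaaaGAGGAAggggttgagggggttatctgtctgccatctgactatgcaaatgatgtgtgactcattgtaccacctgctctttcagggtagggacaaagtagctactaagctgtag
Tlr13 promoter, chrX:106143025-106143203, plus strand: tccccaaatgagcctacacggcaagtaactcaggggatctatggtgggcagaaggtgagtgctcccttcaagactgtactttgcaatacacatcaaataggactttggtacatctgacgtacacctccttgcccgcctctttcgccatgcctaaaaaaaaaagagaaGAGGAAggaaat

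In Cb, all tested members of the family were higher in *Tpp1*-/- mice, and all but *Tlr4* by at least 1.5-fold. A gene was called at an adjusted p below 0.1 (edgeR's quasi-likelihood test, Benjamini-Hochberg over all tested genes) and a fold change of at least 1.5. In Cb, 8 members had enough counts to be tested, of which 7 were called higher and 0 lower (by DESeq2 likewise 7 and 0, and with 8 higher and 0 lower at an unadjusted p below 0.05), against 8.54% of 16382 tested genes called higher and 2.66% called lower. The median log2 fold change of the 8 was 1.78, beside 0.01 over all tested genes. *Tlr1* and *Tlr6*, with 2 to 6 counts in each Cb-N library, and *Tlr9*, with 8 to 14, passed the filter on low counts through the Cb-T libraries, as did *Tlr1* in F/M through the T libraries (6 to 17 counts in N), so these summary values are a description. The T libraries lay above all N libraries for each of the 10 members in Cb, the 2 untested included, as they did for 27.7% of tested genes. In F/M, 4 of 9 tested members were called higher and 0 lower (by DESeq2 likewise 4 and 0, and with 6 and 0 at an unadjusted p below 0.05), against 2.63% and 0.858% of 16665 tested genes, with a median log2 fold change of 0.51 beside 0.01. The T libraries lay above all N libraries for 7 of the 10 members in F/M, against 13.3% of tested genes. In RNA of whole tissue, more cells of a type and more RNA per cell cannot be told apart.

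**Figure D1:**
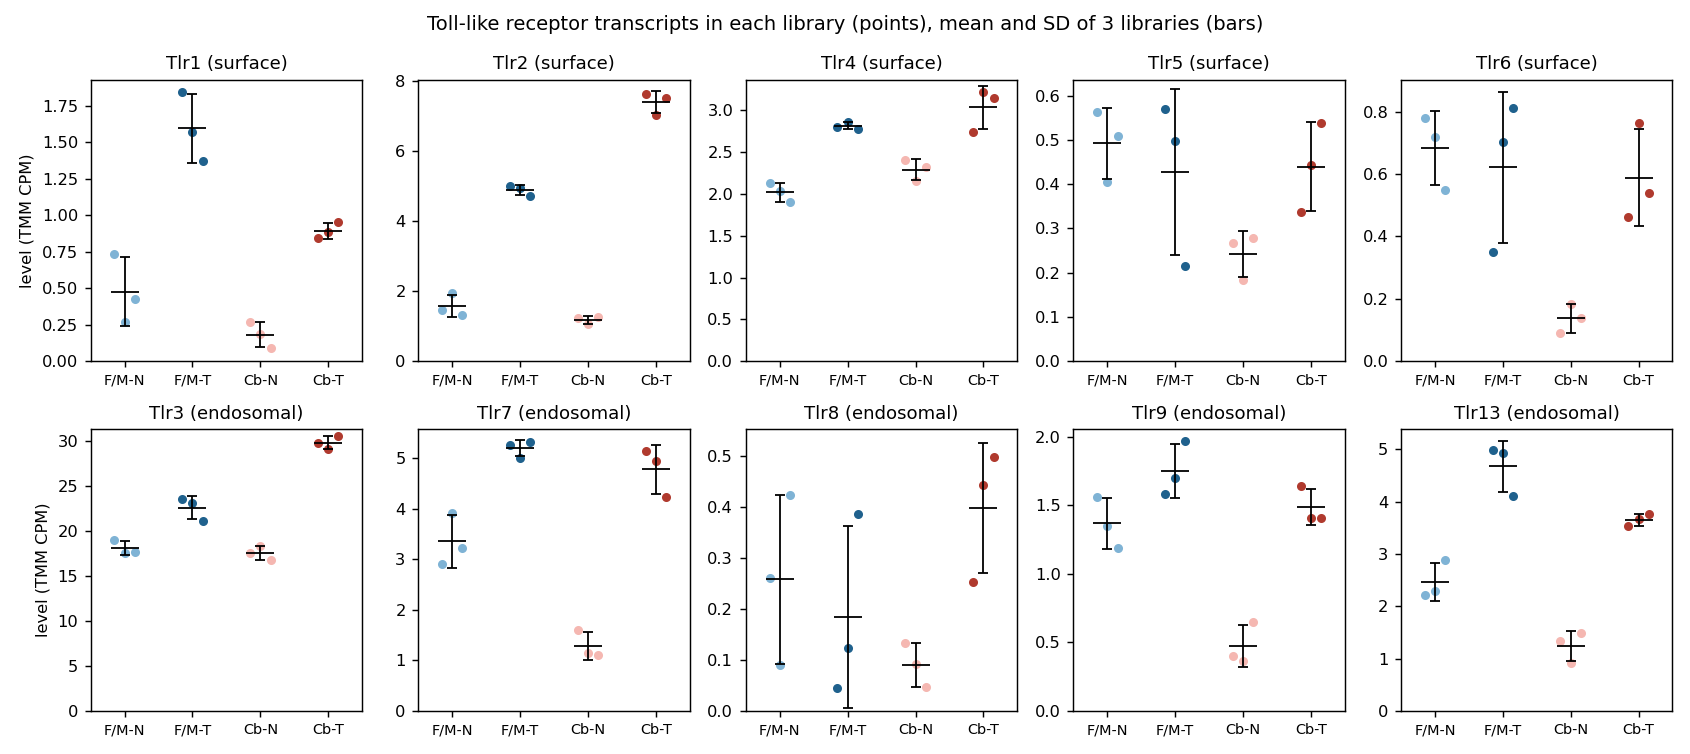
Level of each of the 10 receptor genes in CPM (vertical axis, each panel with its own range from 0) in the 4 groups of 3 libraries; points are libraries, and bars the mean and SD. Tlr2 lies between 7.04 and 7.63 CPM in Cb-T against 1.05 to 1.25 in Cb-N, while the groups of Tlr5 and Tlr8 in F/M overlap.

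Among the surface receptors, *Tlr2* had the highest log2 fold change in Cb. *Tlr2* (chr3:83836272-83841767, minus strand, GRCm38) binds bacterial lipoproteins as a dimer with *Tlr1* or *Tlr6*. Its level was 1.24, 1.05 and 1.25 CPM in the libraries of Cb-N and 7.63, 7.04 and 7.50 in those of Cb-T. In F/M it had 1.47, 1.94 and 1.31 CPM in the N libraries and 4.99, 4.93 and 4.71 in the T libraries. No library of 1 group overlapped another, and the order of the levels was Cb-T, F/M-T, F/M-N and Cb-N. The log2 fold change was 2.65 (SE 0.15, adjusted p = 5.9e-19) in Cb, against 1.67 (SE 0.16, adjusted p = 1.9e-07) in F/M. The change in Cb exceeded that in F/M by 1.00 on the log2 scale (SE 0.23, adjusted p = 0.0016).

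Of the partners of *Tlr2*, *Tlr1* was called in both areas and *Tlr6* in Cb. *Tlr1* (chr5:64924679-64933563, minus strand), which with *Tlr2* recognises triacylated lipopeptides, had 0.266, 0.183 and 0.0928 CPM in Cb-N and 0.843, 0.886 and 0.953 in Cb-T. In F/M it had 0.737, 0.270 and 0.423 CPM in the N libraries against 1.84, 1.57 and 1.37 in the T libraries. *Tlr1* rose in both areas, by a log2 fold change of 2.28 (SE 0.41, adjusted p = 7.5e-06) in Cb, against 1.75 (SE 0.30, adjusted p = 0.00027) in F/M, and the difference between these changes was 0.54 (SE 0.54, adjusted p = 0.54). Its 4 groups did not overlap, with F/M-T highest and Cb-N lowest. The lowest of these levels are near the limit of detection, with 12 counts in all over the Cb-N libraries against 65 over Cb-T, a ratio of 4.91 at equal depth with an exact 95% interval of 2.63 to 9.99 for counting error.

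*Tlr6* (chr5:64952031-64960097, minus strand), which with *Tlr2* recognises diacylated lipopeptides, rose in Cb alone of the areas by the limits used. It had 0.0887, 0.183 and 0.139 CPM in Cb-N and 0.464, 0.765 and 0.539 in Cb-T. In F/M it had 0.781, 0.720 and 0.550 CPM in the N libraries and 0.350, 0.704 and 0.813 in the T libraries, which overlap. The log2 fold change was 2.08 (SE 0.48, adjusted p = 0.00033) in Cb, against -0.09 (SE 0.33, adjusted p = 0.88) in F/M, and the difference between the areas was 2.20 (SE 0.60, adjusted p = 0.0072), the largest among the tested members. Of the 4 groups only Cb-N stood apart, the other groups overlapping with their neighbours in level. The 9 counts in Cb-N and 43 in Cb-T gave a ratio of 4.33 with an exact 95% interval of 2.08 to 10.1.

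*Tlr1* and *Tlr6* lie side by side on chromosome 5 and are partly identical in sequence, which bears on counts of 50-nt reads. Of the 3332 windows of 50 bases in the *Tlr1* transcripts, 454 also occur in *Tlr6* and 513 (15.4%) occur in some other gene. In *Tlr6*, 456 of 3702 windows (12.3%) occur in another gene. The longest identical coding run is 229 bases, at coding bases 1468 to 1696 of 2385 in *Tlr1* and 1507 to 1735 of 2418 in *Tlr6*, and is given because a read from it cannot be assigned to either gene. How the counting treated such reads is not given in the sources used here, so the levels of this pair are uncertain to that extent. The run was read from GRCm38, 5′ to 3′ on the minus strand of the genome, on which both genes lie.
Tlr1 chr5:64925537-64925765 and Tlr6 chr5:64953828-64954056: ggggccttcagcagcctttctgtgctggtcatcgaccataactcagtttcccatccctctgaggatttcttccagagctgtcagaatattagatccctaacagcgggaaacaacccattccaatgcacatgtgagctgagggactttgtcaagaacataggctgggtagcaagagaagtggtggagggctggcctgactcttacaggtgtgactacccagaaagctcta

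*Tlr4*, the receptor of bacterial lipopolysaccharide, had the smallest change of the family in Cb. *Tlr4* (chr4:66827584-66930284, plus strand) had 2.40, 2.15 and 2.32 CPM in Cb-N and 2.74, 3.22 and 3.15 in Cb-T. In F/M it had 2.13, 2.03 and 1.90 CPM in the N libraries and 2.80, 2.86 and 2.78 in the T libraries. All T libraries lay above the N libraries of their area, and the log2 fold changes of 0.42 in Cb (SE 0.16, adjusted p = 0.027), against 0.51 in F/M (SE 0.16, adjusted p = 0.026) met the limit on p but not that on the fold change. The difference between the areas was -0.07 (adjusted p = 0.86). Cb-T and F/M-T overlapped in level, and so no order of these groups was resolved.

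*Tlr5* (chr1:182954788-182976044, plus strand), the receptor of bacterial flagellin, was scarce, with 4 to 13 counts in each library. It had 0.266, 0.183 and 0.278 CPM in Cb-N against 0.337, 0.443 and 0.539 in Cb-T, and was not tested in Cb because of its low counts. Its ratio of counts in Cb was 1.81 at equal depth with an exact 95% interval of 0.966 to 3.54. In F/M the N libraries had 0.564, 0.405 and 0.508 CPM and the T libraries 0.569, 0.497 and 0.214, with a log2 fold change of -0.18 (SE 0.39, adjusted p = 0.79). Between T and N no change of *Tlr5* met the limits in F/M. In Cb the T libraries lay above the N libraries, and with no filter on low counts the log2 fold change was 0.86 (adjusted p = 0.2).

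**Figure D2:**
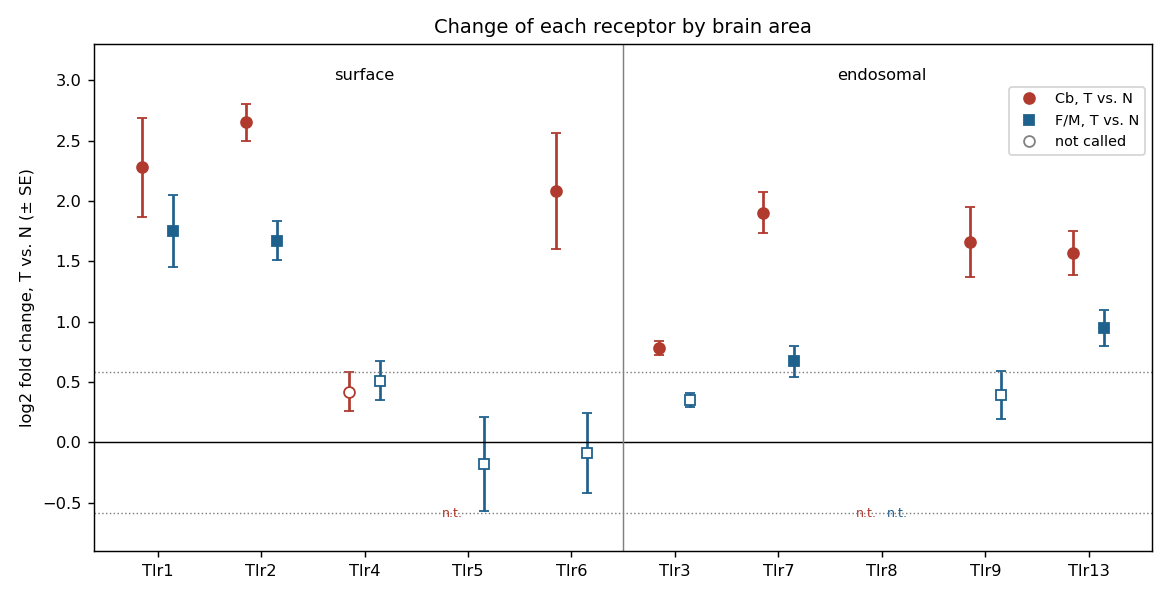
Log2 fold change of T against N for each receptor (points, with SE as bars) in Cb (circles) and F/M (squares), surface receptors on the left and endosomal receptors on the right. Filled symbols passed an adjusted p below 0.1 and a 1.5-fold change (dotted lines), n.t. marks genes with too few counts to be tested. Tlr2 at 2.65 is the highest in Cb and Tlr1 at 1.75 the highest in F/M.

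Of the endosomal receptors, *Tlr3* was by far the most abundant. *Tlr3* (chr8:45395665-45411080, minus strand) binds double-stranded RNA and signals through *Ticam1* alone, where other members use *Myd88*. It had 17.5, 18.3 and 16.8 CPM in Cb-N and 29.8, 29.1 and 30.6 in Cb-T. In F/M the N libraries had 19.0, 17.6 and 17.7 CPM and the T libraries 23.5, 23.1 and 21.1. The control groups of the areas overlapped, and each T group lay above its N group. *Tlr3* rose in Cb with a log2 fold change of 0.78 (SE 0.06, adjusted p = 3.4e-15), while the 0.35 in F/M (SE 0.06, adjusted p = 0.00047) was under the limit on the fold change. The difference of 0.45 between the areas (adjusted p = 0.00017) was under that limit as well. An exon of *Gm45542* on the other strand overlaps 381 of its 5207 exon bases, and reads there cannot be told apart if strand was not used in the counting, which the sources used here do not give.

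*Tlr7*, *Tlr9* and *Tlr13*, which bind single-stranded RNA, unmethylated DNA and bacterial ribosomal RNA, all rose in Cb. *Tlr7* (chrX:167304929-167330558, minus strand) had 1.60, 1.15 and 1.11 CPM in Cb-N and 5.14, 4.95 and 4.23 in Cb-T. In F/M the values were 2.91, 3.92 and 3.22 CPM in N and 5.25, 5.01 and 5.31 in T. The T groups of the areas overlapped, and both lay above F/M-N, which lay above Cb-N. The log2 fold change of *Tlr7* was 1.90 in Cb (SE 0.17, adjusted p = 1.1e-12), against 0.67 in F/M (SE 0.13, adjusted p = 0.001), with a difference of 1.25 (SE 0.22, adjusted p = 8.3e-05). The call in F/M rested on the limit of 1.5-fold, since without F/M-N replicate 1 the log2 fold change was 0.58 (adjusted p = 0.01).

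*Tlr9* (chr9:106222598-106226883, plus strand) had 0.399, 0.367 and 0.649 CPM in Cb-N against 1.64, 1.41 and 1.41 in Cb-T. In F/M it had 1.56, 1.35 and 1.19 CPM in the N libraries and 1.58, 1.70 and 1.97 in the T libraries. Only Cb-N stood apart from its neighbour in level. *Tlr9*, which passed the filter in Cb through the T libraries, rose there by a log2 fold change of 1.66 (SE 0.29, adjusted p = 4.9e-06), had 0.39 in F/M (SE 0.20, adjusted p = 0.2), and the changes differed by 1.29 (SE 0.35, adjusted p = 0.0069).

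*Tlr13* (chrX:106143204-106160493, plus strand) had 1.33, 0.917 and 1.48 CPM in Cb-N and 3.54, 3.66 and 3.77 in Cb-T. In F/M it had 2.21, 2.30 and 2.88 CPM in the N libraries and 4.99, 4.93 and 4.11 in the T libraries. No groups of *Tlr13* overlapped, and F/M-T was the highest. It rose in both areas, by 1.57 in Cb (SE 0.18, adjusted p = 1.2e-09), against 0.95 in F/M (SE 0.15, adjusted p = 9.5e-05) on the log2 scale. The difference of 0.63 (SE 0.24, adjusted p = 0.059) passed the limits, but not with DESeq2 (0.61, adjusted p = 0.14) nor without any of F/M-N replicate 3, F/M-T replicate 3, Cb-N replicate 2 or Cb-T replicate 3 (0.45 to 0.56, adjusted p = 0.12 to 0.23).

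*Tlr8* (chrX:167242696-167264329, minus strand), the neighbour of *Tlr7* on the X chromosome and likewise a receptor of RNA, had too few counts to be tested in either area. It had 3, 2 and 1 counts in the Cb-N libraries and 6, 11 and 12 in Cb-T, a ratio of 4.38 at equal depth with an exact 95% interval of 1.79 to 12.9. In F/M it had 6, 2 and 10 counts in N and 1, 3 and 9 in T, a ratio of 0.707 (0.319 to 1.53). The groups overlapped in F/M and not in Cb. Fitted with no filter on low counts, the log2 fold change of *Tlr8* in Cb was 2.08 (adjusted p = 0.0053). Of the remaining mouse members of the family, *Tlr11* had at most 1 count in a library. *Tlr12*, a receptor of protozoan profilin, had 3 to 33 counts and log2 fold changes of 0.77 in Cb (adjusted p = 0.11), against 0.75 in F/M (adjusted p = 0.12). *Tlr12* was called higher in Cb with limma-voom and without Cb-N replicate 1 or Cb-T replicate 2. In F/M it was called with no filter, with the replicate block and without F/M-N replicate 1 or F/M-T replicate 1.

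Levels of different receptors were compared as CPM per kilobase of annotated exon. In Cb-N, *Tlr3* stood at 3.37 ± 0.149 (SD, n = 3), followed by *Tlr4* at 0.412 ± 0.0221 and *Tlr2* at 0.392 ± 0.037, which were within their SDs of each other. In Cb-T, *Tlr3* at 5.73 ± 0.141 was followed by *Tlr2* at 2.45 ± 0.102, *Tlr7* at 1.17 ± 0.119 and *Tlr13* at 0.850 ± 0.0264, with *Tlr4* at 0.547 ± 0.0465. *Tlr2* stood above every other surface receptor in Cb-T, where in Cb-N it was level with *Tlr4*. In F/M-N the order after *Tlr3* at 3.47 ± 0.145 was *Tlr7* at 0.820 ± 0.127, *Tlr13* at 0.572 ± 0.0843 and *Tlr2* at 0.522 ± 0.107, the last pair within their SDs. In F/M-T, *Tlr2* at 1.62 ± 0.049 stood above *Tlr7* at 1.27 ± 0.039 and *Tlr13* at 1.09 ± 0.114. *Tlr1*, *Tlr5*, *Tlr6* and *Tlr8* stayed under 0.5 CPM per kilobase in each group.

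The summed level of the surface receptors was higher in T by a larger factor than that of the endosomal receptors, and in Cb this held only with *Tlr3* included. The 5 surface genes summed to 4.26, 3.76 and 4.08 CPM in Cb-N and 12, 12.4 and 12.7 in Cb-T, a ratio of means of 3.06, and to 5.68, 5.36 and 4.70 CPM in F/M-N and 10.5, 10.6 and 9.89 in F/M-T, a ratio of 1.97. The 5 endosomal genes summed to 20.6 ± 0.488 CPM in Cb-N and 40.1 ± 0.490 in Cb-T (SD, n = 3), a ratio of 1.94, and to 25.5 ± 0.336 and 34.3 ± 1.27 CPM in F/M, a ratio of 1.35. The surface share of the summed CPM was 15.3 to 16.9% in Cb-N against 22.9 to 23.9% in Cb-T, and 15.6 to 18% in F/M-N and 23.0 to 23.3% in F/M-T. The shares of T and N did not overlap in either area. *Tlr2* made up 29.3% of the surface sum in Cb-N and 59.9% in Cb-T, and *Tlr3* made up 85.0% of the endosomal sum in Cb-N and 74.3% in Cb-T.

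On a log2 scale, the ratio of surface to endosomal CPM was higher in T than in N by 0.66 in Cb (pooled SD 0.08) and by 0.55 in F/M (pooled SD 0.09). Without *Tlr3*, the other endosomal genes summed to 3.09 ± 0.501 CPM in Cb-N and 10.3 ± 0.366 in Cb-T, a ratio of 3.34, and the difference turned to -0.14 in Cb and became 0.31 in F/M. The mean log2 CPM of each class, in which every gene counts alike, gave 0.01 in Cb and 0.31 in F/M. Whether the surface class changed more in Cb therefore depended on *Tlr3* and on how the genes were weighted. By counts of genes, 3 of 4 tested surface receptors and 4 of 4 tested endosomal receptors were called higher in Cb, and 2 of 5 and 2 of 4 in F/M. Of all tested genes, 8.54% were called higher in Cb and 2.63% in F/M. *Tlr1*, *Tlr6* and *Tlr9* in Cb and *Tlr1* in F/M passed the filter through the T libraries, so these counts are a description.

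**Figure D3:**
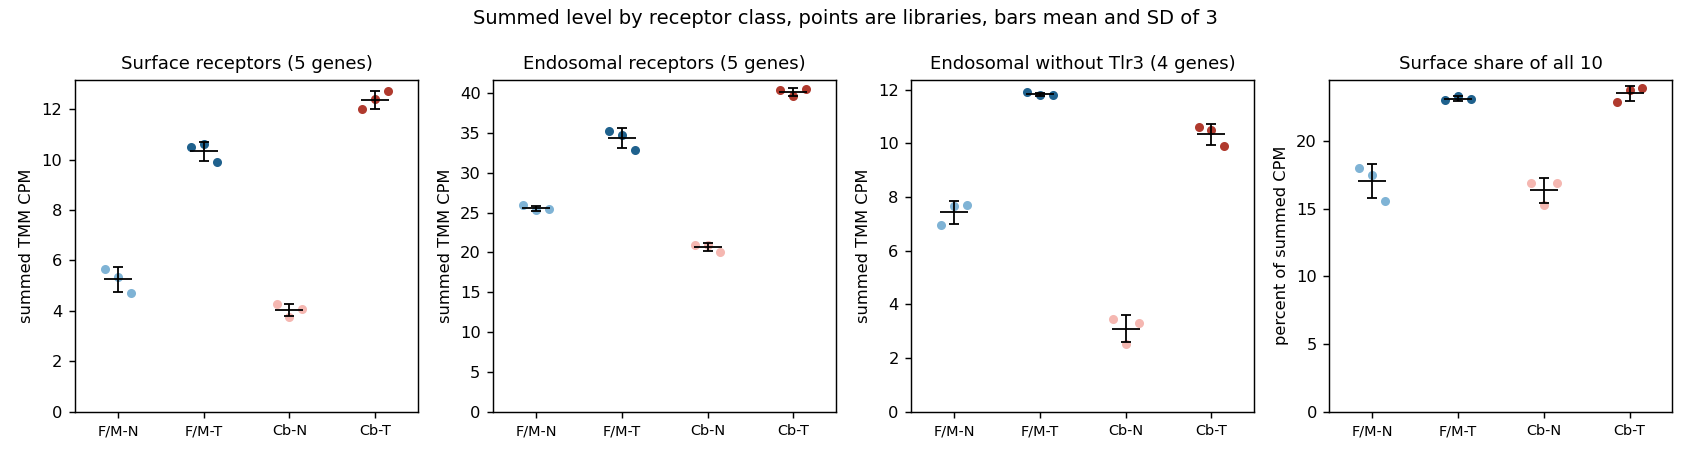
Summed CPM of the surface receptors, of the endosomal receptors with and without Tlr3, and the surface share of the sum in percent (vertical axes from 0), in the 4 groups; points are libraries, and bars the mean and SD of 3. The surface share lies at 15.3 to 18% in the N libraries and 22.9 to 23.9% in the T libraries, and the endosomal sum without Tlr3 goes from 3.09 to 10.3 CPM in Cb.

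In control mice, several receptors were higher in F/M than in Cb, and in *Tpp1*-/- mice few were. Between F/M-N and Cb-N, 6 of 9 tested members were called, all higher in F/M, against 23.2% of 17482 tested genes called higher and 19.2% called lower. These were *Tlr6* with a log2 difference of 2.28 (adjusted p = 8.3e-05), *Tlr9* with 1.53, *Tlr1* and *Tlr7* with 1.37 each, *Tlr5* with 1.01 and *Tlr13* with 0.98. The calls of *Tlr1* and *Tlr5* were lost without F/M-N replicate 1, and that of *Tlr5* also without Cb-N replicate 2. *Tlr1*, *Tlr5* and *Tlr6*, with 2 to 6 counts in each Cb-N library, and *Tlr9*, with 8 to 14, passed the filter through other groups. The count of called members is therefore a description. Between F/M-T and Cb-T, 2 of 9 were called, against 18.9% of tested genes called higher and 17% called lower. *Tlr1* was higher in F/M by 0.83 (adjusted p = 0.0046) and *Tlr2* was lower by a log2 difference of -0.60 (adjusted p = 1.1e-05), of which the call for *Tlr2* was lost with RLE size factors, with DESeq2 and without any of F/M-T replicate 3, Cb-T replicate 1 or Cb-T replicate 3. *Tlr3* and *Tlr4* had log2 differences of 0.04 (adjusted p = 0.54) and -0.18 (adjusted p = 0.32) between the control areas. All 18 genes of a list of microglial markers, described below, were likewise called higher in the F/M controls, with a median log2 difference of 1.70 beside 1.01 for the tested members, and their part was not tested.

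The test of the difference between the areas draws on the same libraries and restates the comparisons above, so it lends them no separate support. Of 9 tested members, 5 changed more in Cb than in F/M (*Tlr2*, *Tlr6*, *Tlr7*, *Tlr9* and *Tlr13*) and 0 changed less (4 and 0 by DESeq2, and 6 and 0 at an unadjusted p below 0.05), against 6.41% and 1.2% of 17482 tested genes. The median difference was 1.00 on the log2 scale, beside 0.03 over all tested genes. *Tlr1*, *Tlr5*, *Tlr6* and *Tlr9* passed the filter through groups other than Cb-N here too, so these summary values are a description. The F/M-N level of *Tlr7* and *Tlr9* was above their Cb-N level, and their T levels overlapped between the areas, so that the larger change in Cb went with a lower control level. For *Tlr2*, the Cb-N level was also the lowest, and the Cb-T level the highest of the 4 groups.

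The markers of microglia moved with the receptors. A list of 18 microglial genes summed to 189 to 200 CPM in Cb-N against 585 to 602 in Cb-T, a ratio of means of 3.08, and to 556 to 578 CPM in F/M-N against 778 to 784 in F/M-T, a ratio of 1.38. Of these, 15 were called higher in Cb and 7 in F/M, with medians of 1.37 and 0.37 on the log2 scale, and 16 changed more in Cb than in F/M. The listed genes moved unequally. Their lowest and highest log2 fold changes were 0.31 and 3.27 for Cb, against -0.06 and 1.38 for F/M. A quotient against their sum is therefore not a level per microglial cell. Set against this sum, *Tlr2* went from 6.12 ± 0.537 to 12.4 ± 0.645 CPM per 1000 CPM of microglial markers in Cb (SD, n = 3) and from 2.78 ± 0.627 to 6.24 ± 0.211 in F/M, ratios of 2.03 and 2.24. *Tlr1* had ratios of 1.59 in Cb and 2.43 in F/M on the same scale. *Tlr7* (1.20 and 1.12) and *Tlr9* (1.03 and 0.928) kept close to the marker sum in both areas. *Tlr13* had 0.956 in Cb and 1.38 in F/M.

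*Tlr3* and *Tlr4* did not follow that sum in Cb. *Tlr4* went from 11.9 ± 0.735 to 5.10 ± 0.363 CPM per 1000 CPM of microglial markers in Cb and from 3.56 ± 0.238 to 3.60 ± 0.0622 in F/M. *Tlr3* had ratios of 0.551 in Cb and 0.906 in F/M. Scarce genes had ratios of 0.588 and 0.631 (*Tlr5*), 1.39 and 0.659 (*Tlr6*) and 1.41 and 0.522 (*Tlr8*) in Cb and F/M. Markers of astrocytes, a cell type known to express *Tlr3*, summed to 6933 to 6987 CPM in Cb-N against 8774 to 8809 in Cb-T, and to 5767 to 6082 in F/M-N against 6626 to 7031 in F/M-T, with 2 of 10 called higher in Cb and 1 in F/M. At an unadjusted p below 0.05 by edgeR, 8 were higher and 1 lower in Cb, and 8 higher and 0 lower in F/M. The quotients against the microglial sum carry no test, and how far cell numbers account for a receptor's level was not tested.

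**Figure D4:**
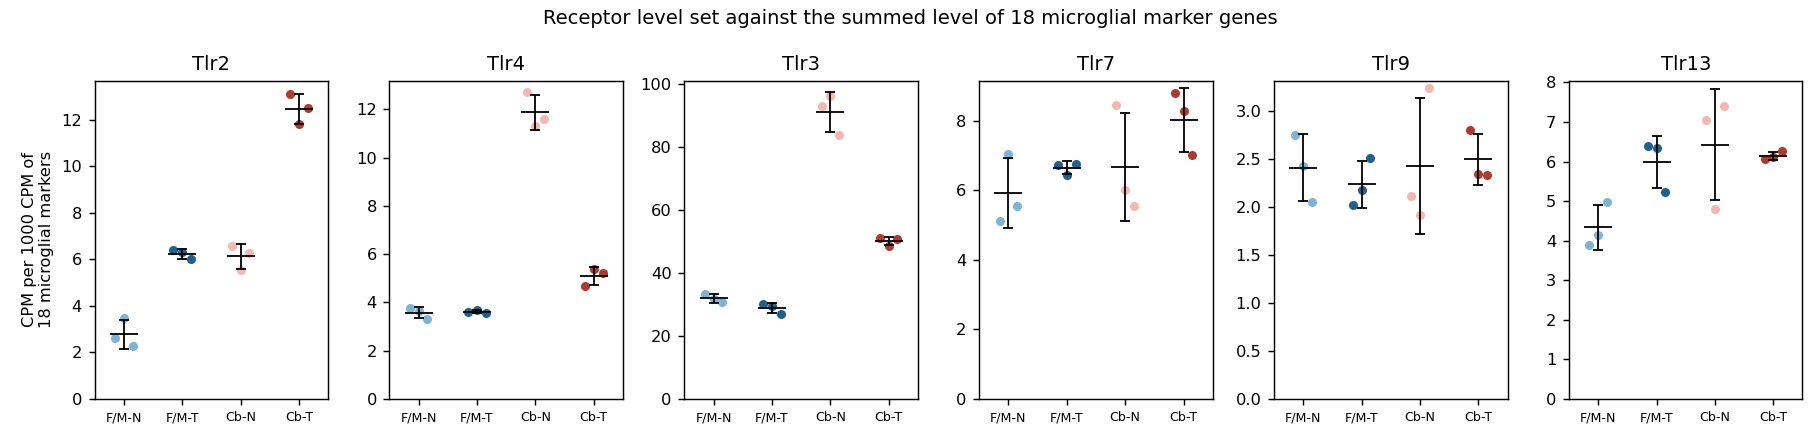
Level of 6 receptors per 1000 CPM of 18 microglial marker genes (vertical axis from 0) in the 4 groups; points are libraries, and bars the mean and SD of 3. Tlr2 goes from 6.12 to 12.4 in Cb and from 2.78 to 6.24 in F/M, Tlr4 and Tlr3 are lower in Cb-T than in Cb-N, and Tlr9 stays between 2.24 and 2.50 on average.

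Markers of other cells were measured beside the receptors. Of 8 genes of border macrophages, 4 were called higher in Cb (19.0 to 20.8 CPM in N, 27.5 to 28.9 in T) and 1 in F/M (31.7 to 33.1 against 33.6 to 36.2), while DESeq2 called 3 and 0. Genes of monocytes and neutrophils were scarce, with 3 of 9 tested in Cb and 2 in F/M and 0 called by edgeR, by DESeq2 or at an unadjusted p below 0.05, and their sum was 3.37 to 3.53 CPM in Cb-N against 2.98 to 3.80 in Cb-T. Of B cells and plasmacytoid dendritic cells, which express *Tlr7* and *Tlr9*, 1 of 7 genes could be tested and was called in Cb with a log2 fold change of 0.92, the list summing to 1.62 to 2.29 CPM in Cb-N against 2.65 to 3.42 in Cb-T. Neurons and endothelial cells had 0 of 8 genes called in either area by edgeR or DESeq2, although at an unadjusted p below 0.05 neurons had 6 lower and 2 higher in Cb and 5 lower and 0 higher in F/M, and endothelial cells 5 higher in Cb and 2 in F/M. Oligodendrocytes had 1 of 8 genes called in Cb, where all 8 were higher at an unadjusted p below 0.05 without overlap of the libraries (median log2 fold change 0.33), and in F/M 0 by both tools and 2 at an unadjusted p below 0.05. The neuronal sum was 5932 to 5993 CPM in Cb-N against 5217 to 5374 in Cb-T, and 7597 to 7681 in F/M-N against 7078 to 7095 in F/M-T. The oligodendrocyte sum was 4615 to 4726 CPM in Cb-N against 6066 to 6125 in Cb-T, and 5939 to 6112 in F/M-N against 5914 to 6083 in F/M-T. The part of these cells in the receptors' levels was not tested.

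In the rest of the pathway, genes were called among the partners, endosomal genes, transcription factors, inhibitors and targets. Of 84 further genes, listed by role, 72 were tested in Cb with 22 called higher and 0 lower, and 73 in F/M with 18 called higher and 0 lower, where 8.54% and 2.63% of all tested genes were called higher. Of those called, 6 in Cb (*Socs1*, *Cd40*, *Il1a*, *Ccl3*, *Ccl4* and *Cxcl10*) and 5 in F/M (*Ly96*, *Ccl3*, *Ccl4*, *Ccl5* and *Cxcl10*) passed the filter on low counts through the T libraries, so the counts of called genes are a description. DESeq2 called 20 and 0 in Cb and 13 and 0 in F/M, and at an unadjusted p below 0.05 there were 13 lower in Cb and 6 in F/M. Median log2 fold changes were 0.20 and 0.09, beside 0.01 over all tested genes in each area. Of the adaptors that link receptors to kinases, 0 of 4 tested were called in either area by edgeR or DESeq2, with 1 at an unadjusted p below 0.05 in Cb and 2 in F/M. A further adaptor, *Ticam2*, was untested for low counts, with 7 counts in all over Cb-N against 38 over Cb-T. *Ticam2* was called higher in Cb with no filter and in the single fit of all libraries. The log2 fold change of *Myd88* was 0.18 in Cb (adjusted p = 0.19) against 0.25 in F/M (adjusted p = 0.11), that of *Ticam1* 0.11 (adjusted p = 0.44) against 0.03 (adjusted p = 0.88). Of 14 kinases and ubiquitin ligases, 0 were called in either area by edgeR or DESeq2, and at an unadjusted p below 0.05 there were 4 higher and 5 lower in Cb and 2 each way in F/M.

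Of 7 partners of the receptors at the surface, 4 were called higher in each area. *Cd14*, which hands lipopolysaccharide to *Tlr4*, had 0.843, 1.01 and 1.39 CPM in Cb-N and 4.13, 4.15 and 4.31 in Cb-T. *Cd14* rose by 1.97 in Cb on the log2 scale (adjusted p = 2.5e-12), against 0.81 in F/M (adjusted p = 0.0036). *Ly96*, the subunit of *Tlr4* that holds the lipid, had log2 fold changes of 0.15 in Cb (adjusted p = 0.72), against 0.95 in F/M (adjusted p = 0.03), a call lost with DESeq2 and without F/M-N replicate 1. *Cd180*, a relative of *Tlr4* without a signalling domain, rose by 2.62 in Cb (adjusted p = 1.8e-17), against 1.65 in F/M (adjusted p = 8.1e-09), together with its partner *Ly86* (2.41 and 1.16). *Cd36*, a scavenger receptor that works with *Tlr2* and *Tlr6*, rose in Cb (0.88, adjusted p = 0.0055) and had 0.01 in F/M.

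Genes that serve the endosomal receptors rose in part, with 4 of 10 called in Cb and 3 in F/M. *Unc93b1*, without which these receptors do not leave the endoplasmic reticulum, had 6.65, 9.17 and 7.19 CPM in Cb-N and 19.7, 16.8 and 16.4 in Cb-T. Its log2 fold change was 1.22 in Cb (adjusted p = 5.3e-15), against 0.61 in F/M (adjusted p = 1.9e-06). *Ctss*, a protease that can cleave *Tlr7* and *Tlr9*, rose by 2.29 in Cb (adjusted p = 3.9e-38), against 1.30 in F/M (adjusted p = 2.4e-15), and *Slc15a3*, a lysosomal histidine transporter, by 1.94 and 1.61. *Ctsl* rose in Cb by 0.60 (adjusted p = 3.9e-20). Near the limit on the fold change, the call of *Unc93b1* in F/M was lost in the single fit of all libraries and without F/M-N replicate 3, and that of *Ctsl* without Cb-N replicate 2 or Cb-T replicate 3.

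Of 9 transcription factors below the receptors, 4 were called in Cb and 3 in F/M. *Relb* was called in Cb alone, with log2 fold changes of 0.86 (adjusted p = 4.6e-06) in Cb and 0.03 (adjusted p = 0.9) in F/M. *Irf8* rose by 2.04 and 0.90 and *Irf5* by 1.21 and 0.59, the last a call lost in the single fit and without any of F/M-N replicate 2, F/M-N replicate 3 or F/M-T replicate 3. *Irf7*, which drives interferon genes, had 1.34, 1.80 and 1.48 CPM in F/M-N and 8.18, 6.95 and 7.28 in F/M-T, and a log2 fold change of 2.31 in F/M (adjusted p = 4.3e-10) against 0.96 in Cb (adjusted p = 4.4e-07), a larger change in F/M by the test of the difference (-1.33, adjusted p = 1.6e-05). *Irf7* thus went the other way from the 5 receptors that changed more in Cb. Among 10 inhibitors, *Socs3* (1.60, adjusted p = 3.1e-08) and *Socs1* (0.86, adjusted p = 0.048) rose in Cb, and *Sigirr* rose in F/M (0.72, adjusted p = 0.03) with -0.10 in Cb (adjusted p = 0.76). The call of *Socs1* was lost with DESeq2 and without Cb-N replicate 2 or Cb-T replicate 1, and that of *Sigirr* with DESeq2 and without F/M-N replicate 1 or F/M-T replicate 3.

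Of 20 genes that the receptors are known to induce, 10 were tested in Cb with 8 called higher, and 12 in F/M with 7 called higher (7 and 4 by DESeq2, which did not call *Ccl4*, *Ccl5* and *Il1a* in F/M). *Il1a*, *Ccl3*, *Ccl4*, *Cxcl10* and *Cd40* in Cb, and *Ccl3*, *Ccl4*, *Ccl5* and *Cxcl10* in F/M, are among those that passed the filter through the T libraries. *Ccl3*, a chemokine of activated microglia, had 0.0444, 0.138 and 0.278 CPM in Cb-N against 2.78, 2.66 and 2.24 in Cb-T. Its log2 fold change was 4.04 in Cb (adjusted p = 9.2e-14), against 3.08 in F/M (adjusted p = 4.3e-07). *Cxcl10*, an interferon-induced chemokine, rose by 2.93 in Cb (adjusted p = 4.9e-11), against 4.14 in F/M (adjusted p = 1.3e-07), and *Il1a* by 2.77 and 0.87, the call in F/M being lost also without any of F/M-N replicate 2, F/M-T replicate 1 or F/M-T replicate 3. *Cd86* (1.87 in Cb and 0.98 in F/M) and *Icam1* (1.11 and 0.86) were called higher in both areas. *Ptgs2* rose in Cb by 1.15 (adjusted p = 0.00021) and had -0.39 in F/M (adjusted p = 0.00035), under the limit on the fold change. *Tnf*, *Il1b*, *Il6*, *Il10*, *Il12b*, *Ifnb1*, *Ccl2* and *Cxcl2* had too few counts to be tested in either area. Of these, *Tnf*, *Il1b* and *Ccl2* had 0, 3 and 8 counts in all over Cb-N against 14, 16 and 36 over Cb-T. With no filter on low counts they were called higher in Cb, as was *Ccl5*, and none of the untested targets was called in F/M. Of 7 endogenous ligands, 0 were called by edgeR or DESeq2, with 3 at an unadjusted p below 0.05 in Cb and 2 in F/M.

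**Figure D5:**
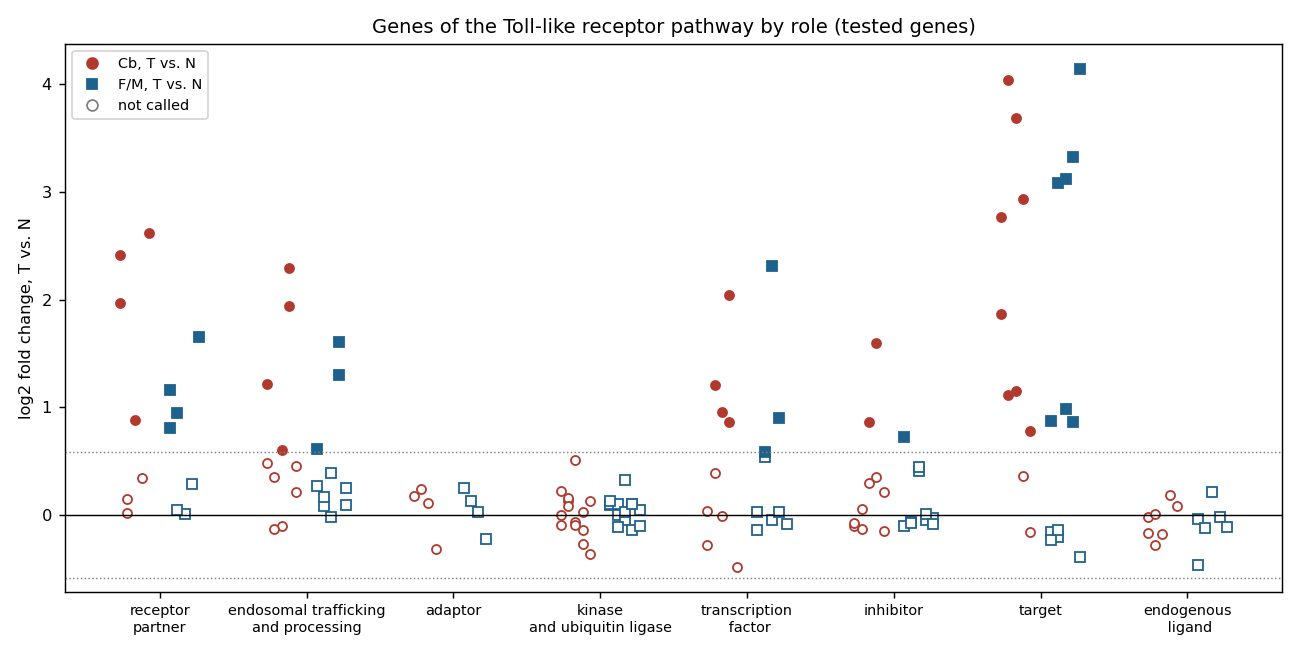
Log2 fold change of T against N (vertical axis) for the tested genes of the pathway by role, circles for Cb and squares for F/M; filled symbols passed an adjusted p below 0.1 and a 1.5-fold change (dotted lines). The filled symbols lie among receptor partners, endosomal genes, transcription factors, inhibitors and targets, and there are 0 filled symbols among adaptors, kinases and endogenous ligands.

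The genes whose log2 CPM ran most nearly with a receptor over the 12 libraries differed among 4 receptors, by Pearson's r over 17481 other genes. The libraries fall into 4 groups, so that r describes mainly the order of the group levels. For *Tlr2* these were *Gfap* (0.9892), *Mmp12* (0.9875) and *Ctsa* (0.9846), and for *Tlr7* they were *Padi2* (0.9856), *Dock2* (0.9841) and *Hcls1* (0.9814). For *Tlr3* they were *Aldh6a1* (0.9823), *Abhd4* (0.9805) and *Sirt2* (0.9798), and for *Tlr4* *Vps11* (0.9711), *Parp9* (0.9699) and *Apobec1* (0.9519). No gene was named for more than 1 of these 4 receptors.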

How the data were processed

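Total RNA of RIN above 9.5 was made into stranded, poly(A)-selected libraries and read as single-end 50-nt reads. STAR was used by the authors for alignment to GRCm38 and featureCounts (Rsubread 1.26.1) for the raw counts per gene that they deposited, which are not normalized. Strand setting, treatment of reads with several alignments and annotation release are not given in the sources used here.

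Genotype was the sole factor in a fit of each area's 6 libraries in R 4.3.3 with edgeR 4.0.16 (filterByExpr with a minimum count of 10 and total of 15, TMM, glmQLFit, glmQLFTest, Benjamini-Hochberg over all tested genes). All 12 libraries were fitted for the tissue-by-genotype interaction and for contrasts between areas. Calls needed an FDR below 0.1 and a change of 1.5-fold or more, which are the limits of the study. The study also asked for a call by at least 2 methods, while the calls here rest on edgeR alone. Every adjusted p comes from edgeR unless DESeq2 1.42.0 is named. The test was checked on simulated counts. Alternatives were RLE size factors, DESeq2, limma-voom, calls by at least 2 of the 3 tools, no filter, a single fit of all libraries, the replicate block and leaving out each library.

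The 10 members, the 84 pathway genes, the marker lists and the rule for named genes (every member, called pathway genes, fixed genes such as *Myd88* and *Ticam1*, and the 3 genes of highest correlation with *Tlr2*, *Tlr3*, *Tlr4* and *Tlr7*) were chosen with earlier results of these data known. Exon lengths and positions were taken from GENCODE M21 and promoters from RefSeq. Replicate pairs differed by a chi-square per degree of freedom of 1.27 to 3.46, so none was a copy of the counts of another. This measure cannot tell libraries of the same RNA or mouse from those of separate mice. RNA came from 3 mice per genotype, and which libraries of the areas share a mouse is not stated, so p-values treat libraries as separate.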

Additional observations from a re-analysis of the deposited data

Results flagged for a closer look

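The change in Cb differed from that in F/M for 5 receptors, by edgeR's test of the interaction of tissue and genotype. The difference was 2.20 on the log2 scale for *Tlr6*, 1.29 for *Tlr9*, 1.25 for *Tlr7*, 1.00 for *Tlr2* and 0.63 for *Tlr13*, each larger in Cb, with adjusted p of 0.0072, 0.0069, 8.3e-05, 0.0016 and 0.059. The call of *Tlr13* was lost with DESeq2 and without any of F/M-N replicate 3, F/M-T replicate 3, Cb-N replicate 2 or Cb-T replicate 3. *Tlr6* had 2 to 4 counts and *Tlr9* 8 to 14 in each Cb-N library. All 3 Cb-T libraries lay above all 3 Cb-N libraries for each of these genes, as for 27.7% of genes tested in Cb, while the F/M libraries of *Tlr6* overlapped. Microglial markers moved with these differences, 16 of 18 with a larger change in Cb, and their part was not tested.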

How the results depend on the processing

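The count of members called was 7 in Cb under the limits used (7 to 9 with each replicate left out, 7 to 8 under the other alternatives), 4 in F/M (3 to 4, and 4), 5 for the interaction (4 to 6, and 4 to 6) and 6 between the control areas (4 to 7, and 6 to 7). Between F/M-T and Cb-T the count of 2 fell to 1 with RLE size factors, with DESeq2 and without Cb-T replicate 3, each time by the loss of *Tlr2*, which was also lost, with *Tlr8* gained, without F/M-T replicate 3 or Cb-T replicate 1, and ranged from 1 to 3 with each replicate left out. The pathway genes called were 22 in Cb (21 to 24, and 20 to 26) and 18 in F/M (15 to 18, and 13 to 19). With the replicate number as a block, the counts were 7, 4, 5, 6, 2, 22 and 19 in the same order. The deviations of same-numbered libraries correlated at -0.0157 to 0.0616 across genes, so the numbers were not taken to pair the samples. The log2 ratio of surface to endosomal CPM differed between T and N by 0.66 in Cb (0.60 to 0.69 with each replicate left out), -0.14 without *Tlr3*, 0.01 as a mean of log2 CPM and 0.89 per kilobase. In F/M it was 0.55 (0.48 to 0.60), 0.31 without *Tlr3*, 0.31 as a mean of log2 CPM and 0.68 per kilobase. Of 354 values of single tested genes with an adjusted p of their own under an alternative, 348 kept their side of the limits and 6 fell short of them, 1 for *Tlr7* in F/M and 5 for the interaction of *Tlr13*. Among values outside the limits throughout, 3 changed sign in F/M, *Tlr5* without F/M-T replicate 3 (0.14) and *Tlr6* without F/M-N replicate 1 (0.01) or F/M-T replicate 1 (0.18). With DESeq2, the adjusted p of *Tlr4* was 0.12 in both areas. Of the genes untested for low counts, *Tlr5* was called in Cb without Cb-T replicate 1 (1.01, adjusted p = 0.086) and *Tlr8* without each of 4 replicates (1.78 to 2.45). Depth limits *Tlr1*, *Tlr5*, *Tlr6*, *Tlr8* and *Tlr9* most, with under 50 counts in each library.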
